A study of Bos taurus with 48 samples.

Results

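The data compared the microRNA (miRNA) content of liver with that of the mammary fat pad in Bos taurus. All 17 liver samples and all 16 mammary fat pad samples were taken by their tissue labels, 33 of the 48 samples of the series, and 15 samples of mammary parenchyma were not used. The liver group held 6 samples labelled milk replacer ad libitum, 6 labelled restricted milk replacer and 5 labelled control, and the mammary fat pad group held 6, 6 and 4. The labels gave no age, breed, diet composition or animal identity, so p-values measured the spread between these samples, which may be technical. Tissue was placed in a preserving solution at slaughter, total RNA was extracted, and small RNA libraries were sequenced. The deposited values were normalized read counts for 524 mature miRNAs, each library's counts having been divided by 1 size factor.

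A miRNA is a short RNA cut from a hairpin precursor, and the bases near its 5′ end, the seed, pair with messenger RNAs and lower their output. Hepatocytes, which make up most of the liver, are known for a few very abundant miRNAs, above all miR-122. The mammary fat pad is the bed of adipocytes, fibroblasts and vessels into which the milk ducts grow, and its miRNAs come from a mixture of mesenchymal and vascular cells. In bulk tissue of this kind, fewer cells of a type and less RNA per cell cannot be told apart.

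The following mature sequences, written 5′ to 3′ in DNA letters with the seed (bases 2 to 8) in capitals, were shown because each carries a result described here and was listed as the canonical form in the supplementary tables. No seed was shared among these 8.
miR-375: tTTTGTTCgttcggctcgcgtga
miR-215: aTGACCTAtgaattgacagaca
miR-223: tGTCAGTTtgtcaaatacccca
miR-451: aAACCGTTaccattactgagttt
miR-30c: tGTAAACAtcctacactctcagc
miR-100: aACCCGTAgatccgaacttgtg
miR-433: aTCATGATgggctcctcggtgt
miR-708: aAGGAGCTtacaatctagctggg
Of these, miR-375, miR-215, miR-223, miR-451 and miR-30c were higher in liver, and miR-100, miR-433 and miR-708 were lower in liver.

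The liver libraries had the lower median depth. The reads recovered from the value steps numbered 826776 to 5146724 per liver library (median 2651081) and 2123962 to 9522666 per mammary fat pad library (median 5261943). A value listed at 0 could stand for up to 5 reads, because the smallest value above 0 was 6 steps in every library. Liver restricted replicate 8 had the highest sum of values, 8068260, against 6090340 for the next library, and without it 121 miRNAs were higher and 135 lower in liver. Mammary fat pad ad libitum replicate 3 held 3798 of miR-122, while the other 15 mammary fat pad libraries averaged 143 ± 183 (SD) and reached 667. In that library miR-192 stood at 2534, the 9th highest of the 16, miR-885 was listed at 0 and miR-215 stood at 264.

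The tissues differed across most of the measured miRNAs. Of 325 miRNAs with a mean of at least 10 over the 33 samples, 120 (36.9%) were higher in liver and 131 (40.3%) were lower, at an adjusted p under 0.05 (limma on log2(value + 1), Benjamini-Hochberg). In 52 (16.0%) every liver sample lay above every mammary fat pad sample, and in 45 (13.8%) every liver sample lay below. Of the 325, 12 were listed at 0 in every mammary fat pad library and 10 in every liver library. These passed the filter only through the other tissue, so their place in such counts is a description. Of the calls, 42 higher and 26 lower had a log2 fold change of 3 or more in size, and the median over all 325 was −0.20. With each library set to a sum of 1000000, 115 were higher and 151 lower, and the median was −0.30. The plot of mean levels shows miRNAs far from the diagonal on both sides.

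**Figure D1:**
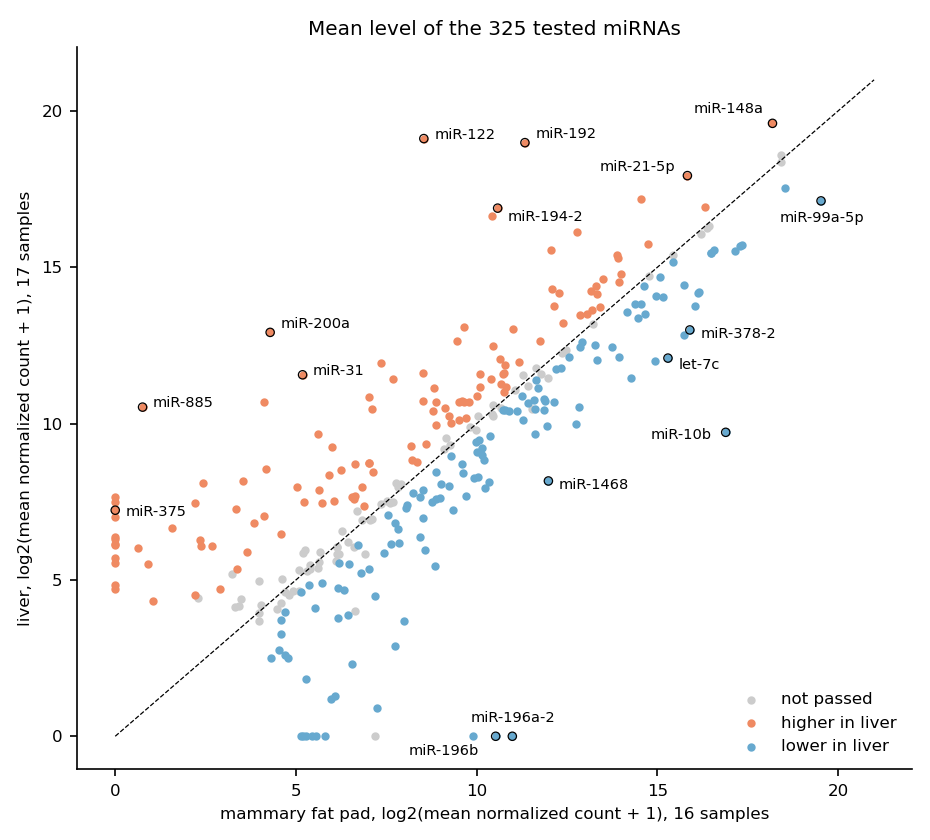
Mean level of each of the 325 tested miRNAs in liver (vertical axis, 17 samples) and mammary fat pad (horizontal axis, 16 samples), both as log2(mean normalized count + 1), with the dashed line marking equal levels. Orange points were higher in liver (120), blue points lower (131) and grey points did not pass, and miR-122 and miR-196a-2 stand at opposite extremes.

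The most abundant miRNAs were partly shared. In liver, miR-148a took 14.6% of the summed values, miR-122 10.6%, miR-192 9.63%, miR-143 7.40% and miR-26a 6.36%. In the mammary fat pad, miR-99a-5p took 16.0%, miR-126-3p 8.02%, miR-143 7.36%, miR-26a 7.32% and miR-148a 6.26%. A library's own 10 most abundant miRNAs held 65.7% ± 2.57 (SD) of a liver library and 59.6% ± 2.45 of a mammary fat pad library, a difference of 6.08 percentage points (permutation test, two-sided, p = 2e-05, the smallest the resamples could give). Over the single most abundant miRNA the difference was −0.23 percentage points (permutation p = 0.84).

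miR-143 and miR-26a were abundant in both tissues and did not pass the test, although with sums of 1000000 miR-26a was called lower in liver (−0.22, adjusted p = 0.00168) and in the milk replacer groups alone miR-143 was called higher (0.39, adjusted p = 0.0151). miR-143, best known from smooth muscle, ranged from 262492 through a median of 389194 to 765784 in liver and from 235093 through 331468 to 544353 in the mammary fat pad. Its log2 fold change was 0.14 ± 0.11 (SE, adjusted p = 0.247). miR-26a, an abundant miRNA of many tissues that targets EZH2, had a log2 fold change of −0.07 ± 0.07 (adjusted p = 0.377), and both tissues overlapped almost throughout.

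The number of miRNAs detected differed between tissues in a direction that depended on the minimum value. At a value of 2 or more, 310 ± 24.2 miRNAs (SD) were detected per liver library and 331 ± 26.8 per mammary fat pad library, a difference of −20.3 (permutation test, two-sided, p = 0.029). Without liver ad libitum replicate 6, or mammary fat pad ad libitum replicate 6 or 11, the permutation p was 0.053, 0.05 and 0.056. At a minimum value of 10 the difference was 4.5 (permutation p = 0.39), and at 50 more miRNAs were detected in liver, 250 ± 5.30 against 242 ± 4.81 in the mammary fat pad, a difference of 7.78 (permutation p = 0.00028). Every listed value above 0 exceeded 2, so the count at 2 is of all miRNAs above 0. A minimum of 10 removed no further miRNA in most liver libraries. The counts at 2 and 10 therefore depend on the smallest value that each library lists. After each library was thinned to 826776 reads, 263 ± 8.74 were detected in liver and 260 ± 9.53 in the mammary fat pad, a difference of 3.61 (permutation p = 0.27). Of all 524 miRNAs, 71 were at 0 in all 33 libraries, 37 were above 0 only in liver and 54 only in the mammary fat pad.

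Values varied more among liver samples. Over 116 miRNAs with a mean of at least 1000 in both tissues, the within-group SD of log2 values had a median of 0.41 in liver and 0.25 in the mammary fat pad. The SD was larger in liver for 101 of the 116. As a check for duplicate libraries, none of the 76 pairs of samples within a group agreed within sampling noise, and each sample was counted once.

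All 5 hepatocyte miRNAs tested were higher in liver, beside 36.9% of all 325, and all 5 lay above without overlap, beside 16.0%. Their median log2 fold change was 7.56, against −0.20 over all 325. One of them, miR-885, passed the filter on the mean only through its liver values, so its higher level is a description. miR-122, the miRNA that defines hepatocytes and acts on lipid metabolism, ranged from 284363 through a median of 538988 to 987770 in liver. In the mammary fat pad it ranged from 0 through 85.1 to 3798, so the lowest liver sample held far more than the highest mammary fat pad sample. The log2 fold change was 12.77 ± 0.69 (SE, adjusted p = 2.69e-17), and miR-122 took between 5.97% and 16.8% of each liver library.

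miR-192 and miR-194, made from a shared precursor and abundant in liver, gut and kidney, followed the same pattern. miR-192 ranged from 300183 through 464678 to 992138 in liver and from 1763 through 2541 to 3621 in the mammary fat pad. Its log2 fold change was 7.56 ± 0.14 (SE, adjusted p = 3.1e-30). miR-194-2 ranged from 86795 through 120583 to 157308 in liver and from 1077 through 1544 to 2217 in the mammary fat pad, a log2 fold change of 6.28 ± 0.10.

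The other hepatocyte members were less abundant. miR-215, which is close in sequence to miR-192, ranged from 1514 through 1860 to 4988 in liver and from 199 through 449 to 782 in the mammary fat pad, a log2 fold change of 2.30 ± 0.18. miR-885, known in humans as a liver-enriched miRNA, ranged from 642 through 1262 to 3133 in liver. In the mammary fat pad it reached only 5.81 and its median was 0.

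The plot of values per sample sets these members beside miRNAs of other groups, and the tissues separate in all its panels but those of miR-143 and miR-26a.

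**Figure D2:**
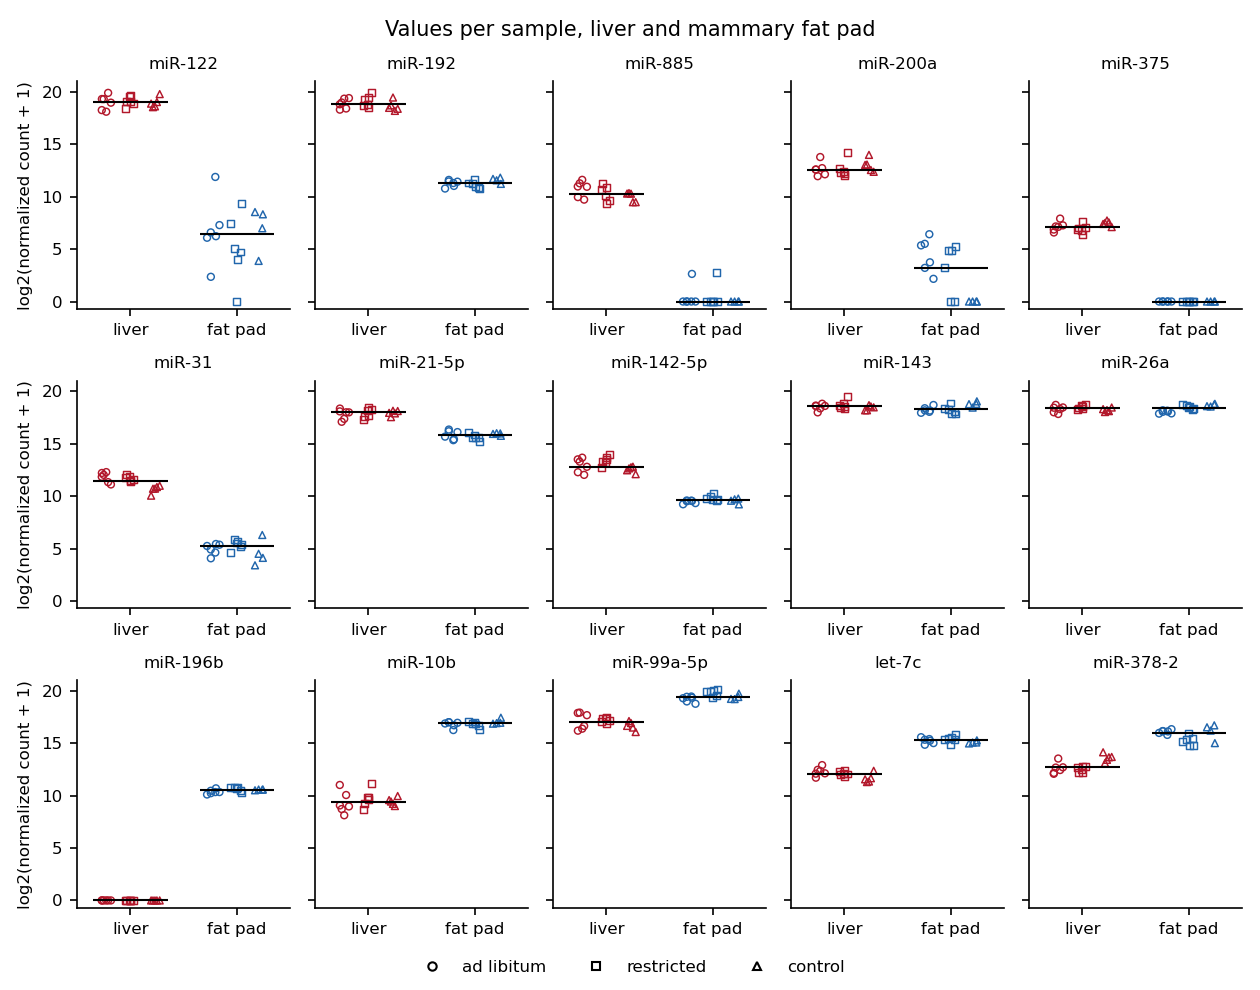
Values of 15 miRNAs in each of the 17 liver samples (red, left) and 16 mammary fat pad samples (blue, right), as log2(normalized count + 1), with a black line at the median of each tissue and the marker shape giving the feeding label. miR-122, miR-192, miR-885, miR-200a, miR-375, miR-31, miR-21-5p and miR-142-5p lie higher in every liver sample, miR-143 and miR-26a overlap, and the last 5 lie lower in every liver sample.

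Most epithelial miRNAs were higher in liver. Of the 11 in that list 10 were called higher with or without the filter on the mean, 8 of them with no overlap. Among all 325, 36.9% were higher and 16.0% had every liver sample above every mammary fat pad sample. miR-205, the other member, averaged 3.22 in liver and 10.5 in the mammary fat pad and was below the filter. The median log2 fold change of the 10 was 6.33, a value that depends on the pseudocount (4.13 with a pseudocount of 10) and on the filter, which several members listed at 0 in the mammary fat pad passed only through their liver values. The miR-200 family, which represses ZEB1 and ZEB2 and keeps cells epithelial, was led by miR-200a. It ranged from 3991 through 6152 to 19217 in liver and from 0 through 8.30 to 84.8 in the mammary fat pad, a log2 fold change of 10.28 ± 0.46 (SE, adjusted p = 1.82e-19). miR-200b ranged from 941 through 1404 to 3032 in liver and from 0 through 10.2 to 67 in the mammary fat pad. miR-200c ranged from 446 through 694 to 1605 in liver and from 0 through 28.4 to 195 in the mammary fat pad.

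Several epithelial miRNAs were listed at 0 in every mammary fat pad library. miR-375, known from pancreatic islets and secretory epithelia, ranged from 82.2 through 138 to 240 in liver. miR-429, of the miR-200 family, ranged from 108 through 162 to 413 in liver, and miR-141 from 22.7 through 53.4 to 296. No fold change was given for these, nor for miR-96, which reached 281 in liver and 0 in the mammary fat pad.

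miR-182 and miR-183 come from a shared transcript with miR-96. miR-182 ranged from 103 through 229 to 710 in liver and from 0 through 0 to 84.3 in the mammary fat pad, with the 84.3 in control replicate 19. miR-183 ranged from 58.4 through 108 to 407 in liver and from 0 through 0 to 98.7 in the mammary fat pad, so its ranges overlapped. miR-31, a miRNA of stratified epithelia, ranged from 1061 through 2863 to 5043 in liver and from 9.58 through 36.3 to 77.7 in the mammary fat pad. Its log2 fold change was 6.44 ± 0.20 (SE, adjusted p = 6.55e-24).

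Other miRNAs with high liver levels had no place in a list. miR-10225a ranged from 32.9 through 161 to 366 in liver and miR-507b from 37.2 through 122 to 296, and both were listed at 0 in every mammary fat pad library. miR-11995 ranged from 94.1 through 146 to 327 in liver and reached 11.5 in the mammary fat pad. miR-2411-3p varied widely in liver, from 20.8 through 128 to 1159, and reached 45.4 in the mammary fat pad.

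The miRNAs encoded within the HOX gene clusters, which pattern the body axis, were all lower in liver, beside 40.3% of all 325. Of the 4, 2 were measured in both tissues and 2 were listed at 0 in liver, so that these passed the filter on the mean only through the mammary fat pad and their lower level is a description. The median log2 fold change of the 4 was −8.95, and −7.29 with a pseudocount of 10. miR-196a-2 was listed at 0 in every liver library and ranged from 1456 through 2185 to 2408 in the mammary fat pad. miR-196b was likewise listed at 0 in every liver library and ranged from 1105 through 1486 to 1758 in the mammary fat pad.

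The miR-10 members were measured in both tissues. miR-10b ranged from 279 through 692 to 2234 in liver and from 78555 through 122817 to 177670 in the mammary fat pad, a log2 fold change of −7.39 ± 0.21 (SE, adjusted p = 5.27e-25). miR-10a ranged from 1035 through 2776 to 4629 in liver and from 12388 through 20693 to 27012 in the mammary fat pad, a log2 fold change of −2.88 ± 0.13. Neither overlapped between the tissues.

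Further miRNAs outside the lists were much lower in liver. miR-1468 ranged from 174 through 295 to 457 in liver and from 2337 through 3862 to 5676 in the mammary fat pad, a log2 fold change of −3.86 ± 0.11. miR-708, which lies in an intron of TENM4, ranged from 450 through 843 to 2761 in liver and from 3621 through 6707 to 9914 in the mammary fat pad. miR-2483-5p reached 7.57 in liver and ranged from 14.0 through 146 to 233 in the mammary fat pad, and miR-2483-3p, from the other arm, was listed at 0 in every liver library and reached 109 in the mammary fat pad. miR-504 reached 77.6 in liver and ranged from 72.0 through 137 to 267 in the mammary fat pad.

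Stromal and smooth muscle miRNAs were mostly lower in liver, 7 of 9 lower and 1 higher, beside 40.3% lower among all 325, with a median log2 fold change of −1.36. miR-199b, from a transcript of mesenchymal cells, ranged from 1413 through 3065 to 8635 in liver and from 20812 through 29472 to 43140 in the mammary fat pad, a log2 fold change of −3.04 ± 0.19 (SE). The related miR-199a-1-3p at −1.66 ± 0.12 and miR-214 at −2.02 ± 0.13, did not overlap between tissues either. miR-145, which is made with miR-143 in smooth muscle, had a log2 fold change of −1.20 ± 0.10 although miR-143 itself did not pass. miR-152 was the member higher in liver, at 0.55 ± 0.14.

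Both arms of miR-126, the endothelial miRNA from an intron of EGFL7, were lower in liver. miR-126-3p ranged from 87097 through 191439 to 278709 in liver and from 251938 through 353926 to 594379 in the mammary fat pad, a log2 fold change of −1.04 ± 0.12 (SE, adjusted p = 1.26e-09). miR-126-5p had a log2 fold change of −0.53 ± 0.18 (adjusted p = 0.0093).

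Adipocyte-linked miRNAs were split, with 7 of 13 lower in liver, 1 higher and 5 not passing, a share not far from the 40.3% lower among all 325, and a median log2 fold change of −0.87. The 4 miR-378 members, miRNAs linked to energy metabolism, were lower in liver. miR-378-2 ranged from 4351 through 6666 to 18025 in liver and from 28254 through 64714 to 107212 in the mammary fat pad, a log2 fold change of −2.92 ± 0.15 (SE, adjusted p = 8.92e-18). miR-335, from the imprinted MEST gene, ranged from 36.8 through 126 to 190 in liver and from 243 through 390 to 527 in the mammary fat pad.

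Of the miRNAs linked to brown adipocytes in mouse, miR-193b and miR-365-3p did not pass, whereas miR-365-5p did. miR-193b had a log2 fold change of −0.01 ± 0.18 (SE, adjusted p = 0.95) and miR-365-3p of 0.01 ± 0.15 (adjusted p = 0.97). miR-365-5p, from the other arm, was lower in liver at −2.43 ± 0.56 (adjusted p = 0.000219) and was listed at 0 in 4 liver libraries. miR-455-5p was the member higher in liver, at 0.76 ± 0.17. miR-193a-5p was lower in liver, at −0.87 ± 0.13.

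Immune cell miRNAs were mostly higher in liver, 6 of 8 beside 36.9% of all 325, with 1 lower and a median log2 fold change of 2.03. miR-142-5p, made in blood-derived cells, ranged from 4200 through 7215 to 15943 in liver and from 597 through 780 to 1192 in the mammary fat pad, a log2 fold change of 3.35 ± 0.13 (SE, adjusted p = 1.19e-20). miR-223, of myeloid cells, ranged from 93.5 through 227 to 505 in liver and from 10.4 through 30.1 to 80.2 in the mammary fat pad, a log2 fold change of 3.00 ± 0.23. miR-146a, induced by NF-kB signalling, had a log2 fold change of 3.13 ± 0.16, and these 3 miRNAs did not overlap between tissues. miR-155, of activated lymphocytes and macrophages, was lower in liver at −1.38 ± 0.21.

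Of the erythroid miRNAs, miR-451 ranged from 1202 through 4144 to 6697 in liver and from 1012 through 1605 to 2734 in the mammary fat pad, a log2 fold change of 1.00 ± 0.21 (SE, adjusted p = 5.35e-05). miR-144, from the same transcript, was also higher in liver, whereas miR-486 had a log2 fold change of 0.06 ± 0.15 (adjusted p = 0.73). The red cell share of either tissue was not measured, and its part in the erythroid and immune values was not tested. The 3 striated muscle miRNAs tested of 5 did not pass, with a median log2 fold change of −0.17. miR-1 ranged from 64.4 through 1233 to 2914 in liver and from 465 through 1236 to 2820 in the mammary fat pad.

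miRNA families moved with different strength. The plot of lists orders them by their median, and the let-7, miR-99, miR-181 and miR-221 families lie on the side lower in liver.

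**Figure D3:**
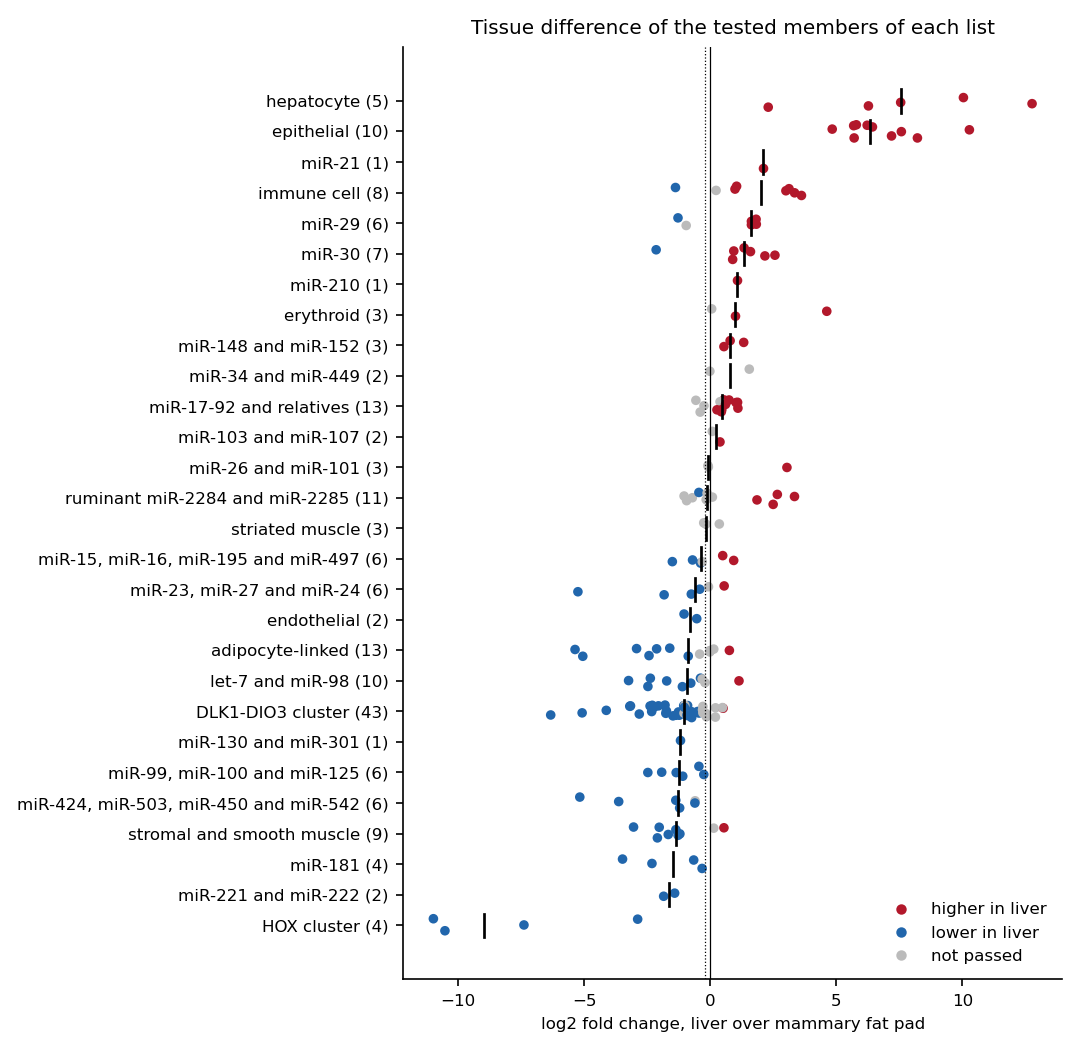
Log2 fold change of liver over mammary fat pad for each tested miRNA of 28 lists, 1 point per miRNA, with the number tested in brackets, a black bar at the list median and a dotted line at the median of all 325 (−0.20). Red points were higher in liver, blue points lower and grey points did not pass, and hepatocyte (median 7.56) and HOX cluster (median −8.95) lie at the ends.

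Of the let-7 family with miR-98, which restrains proliferation and LIN28, 7 of 10 were lower in liver, beside 40.3% of all 325, and 1 higher, with a median log2 fold change of −0.94. let-7c ranged from 2516 through 4379 to 7715 in liver and from 29729 through 40466 to 58397 in the mammary fat pad, a log2 fold change of −3.24 ± 0.11 (SE, adjusted p = 9.85e-23). let-7b had −2.37 ± 0.11, let-7e −2.47 ± 0.17 and let-7i −1.72 ± 0.15, while let-7g had −0.21 ± 0.14 (adjusted p = 0.17) and passed as lower with sums of 1000000, which called 9 of the 10 lower. The member that was higher, let-7a-1-3p, is a passenger arm with another sequence.

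All 6 members of the miR-99, miR-100 and miR-125 group, several of them transcribed with let-7, were lower in liver, beside 40.3% of all 325. Their median log2 fold change was −1.22. miR-99a-5p, the most abundant miRNA of the mammary fat pad, ranged from 68877 through 136439 to 249230 in liver and from 447241 through 704088 to 1141740 in the mammary fat pad. Its log2 fold change was −2.47 ± 0.15 (SE, adjusted p = 6.14e-16). miR-100 ranged from 27110 through 36705 to 54930 in liver and from 36383 through 43760 to 54628 in the mammary fat pad, a much smaller log2 fold change of −0.25 ± 0.07 (adjusted p = 0.00165).

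Groups higher in liver included miR-30, miR-148 and miR-29. Of 7 miR-30 members, 6 were higher, beside 36.9% of all 325, and 1 lower, the lower one being the passenger arm miR-30b-3p. miR-30a-5p ranged from 98600 through 130431 to 266011 in liver and from 17961 through 24789 to 30960 in the mammary fat pad, a log2 fold change of 2.57 ± 0.11 (SE). miR-30c ranged from 30751 through 38361 to 55506 in liver and from 12470 through 15605 to 19100 in the mammary fat pad, a log2 fold change of 1.35 ± 0.08. miR-148a, which targets the LDL receptor, ranged from 445899 through 728899 to 1711150 in liver and from 204944 through 301172 to 460661 in the mammary fat pad, a log2 fold change of 1.33 ± 0.12.

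The miR-29 family, which represses collagens, had 3 of 5 measurements higher, beside 36.9% of all 325, and 1 lower. miR-29a ranged from 10293 through 16045 to 42083 in liver and from 2220 through 5066 to 7869 in the mammary fat pad, a log2 fold change of 1.82 ± 0.14 (SE). The values of miR-29b and miR-29e were identical in every sample, so they count the same reads and were counted as 1 measurement.

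miR-21-5p, an abundant miRNA of injury and growth, ranged from 140851 through 262460 to 355093 in liver and from 38162 through 57164 to 84100 in the mammary fat pad, a log2 fold change of 2.08 ± 0.13 (SE, adjusted p = 1.58e-15). miR-101-2, which targets EZH2, ranged from 21611 through 59616 to 360779 in liver and from 2573 through 6860 to 14387 in the mammary fat pad, with the 360779 in restricted replicate 8. Its log2 fold change was 3.04 ± 0.29. miR-210, induced by hypoxia, ranged from 659 through 933 to 1397 in liver and from 218 through 426 to 862 in the mammary fat pad, a log2 fold change of 1.07 ± 0.11.

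Of the miR-17-92 cluster and its relatives, growth-promoting miRNAs, 9 of 13 were higher in liver, beside 36.9% of all 325, and 0 lower, with a median of 0.46, against 7 and 1 with sums of 1000000. Among them miR-92a-1, the most abundant, had a log2 fold change of 1.09 ± 0.10 (SE), from 17767 through 24532 to 38646 in liver and from 7934 through 11447 to 15618 in the mammary fat pad. miR-19a had 1.10 ± 0.25, with ranges that overlapped. The 4 miR-181 members and both miR-221 and miR-222 were lower in liver, beside 40.3% of all 325. In the miR-424, miR-503, miR-450 and miR-542 group 5 of 6 were lower, beside the same 40.3%, with a median of −1.29. In that group miR-503-3p was listed at 0 in every liver library. It passed the filter on the mean only through the mammary fat pad, so its lower level is a description. Of 11 ruminant miR-2284 and miR-2285 members tested of 49, 4 were higher, 1 lower and 6 did not pass. Among all 325, 36.9% were higher and 40.3% lower.

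miRNAs of the DLK1-DIO3 cluster, an imprinted locus whose miRNAs come from the maternal chromosome in mouse and human, were mostly lower in liver. Of 43 tested of 55, 31 were lower, beside 40.3% of all 325, and 1 higher, with a median log2 fold change of −1.02. miR-127, which acts on the paternally expressed RTL1, ranged from 8658 through 17033 to 25775 in liver and from 19938 through 33051 to 68383 in the mammary fat pad, a log2 fold change of −1.05 ± 0.13 (SE, adjusted p = 1.41e-08). miR-433 ranged from 69.7 through 188 to 335 in liver and from 136 through 374 to 1299 in the mammary fat pad, a log2 fold change of −1.22 ± 0.24. miR-382 and miR-379 did not overlap between tissues, at −2.30 ± 0.20 and −1.36 ± 0.14. miR-543 was the member higher in liver, at 0.51 ± 0.20 (adjusted p = 0.018), and it did not pass with sums of 1000000 (adjusted p = 0.094).

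Within each feeding group the tissues were compared in the same fit. In ad libitum samples 113 miRNAs (34.8%) were higher and 127 (39.1%) lower in liver, in restricted samples 113 (34.8%) and 118 (36.3%), and in control samples 101 (31.1%) and 90 (27.7%). In all 3 groups 89 were higher and 75 lower, and 0 were called in opposite directions. The numbers of samples differ between these groups, so the counts alone do not compare them.

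The tissue difference itself was then compared between feeding groups. The difference in milk replacer samples (mean of ad libitum and restricted) minus that in control samples was positive past the threshold for 7 names (2.15%) and negative for 25 (7.69%). The 7 hold both copies of miR-103 and both of miR-92a, which share reads. With 1 copy per group 5 were positive and 25 negative. With each library set to a sum of 1000000 these were 0 and 49, and the median over all miRNAs stood at −0.34, against 0.02 with the deposited scaling. The counts also depended on single control libraries. The 25 became 12 without mammary fat pad control replicate 19, 14 without replicate 21 of that group, and 15 and 16 without liver control replicates 18 and 1. The 7 became 3 without liver control replicate 1 or 18 or mammary fat pad control replicate 21, 4 without mammary fat pad control replicate 2, and 12, 13 and 14 without liver ad libitum replicate 3, restricted replicate 8 and control replicate 19.

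Of the 25, 20 belonged to the DLK1-DIO3 cluster, that is 20 of its 43 tested miRNAs, beside 7.69% of all 325. In the cluster 42 of 43 differences were negative with a median of −1.33, against 157 of all 325 with a median of 0.02. The summed level of the cluster had a median of 54523 in ad libitum, 49853 in restricted and 86672 in control livers. In the mammary fat pad it was 141854, 116003 and 106252. In control samples 3 of the 43 were higher in liver and 8 lower, with a median of −0.15, whereas 0 were higher and 35 lower in ad libitum samples and 0 and 33 in restricted samples. Among all 325, 31.1% were higher and 27.7% lower in control samples. In ad libitum samples these shares were 34.8% and 39.1%, and in restricted samples 34.8% and 36.3%. The 20 became 7 without mammary fat pad control replicate 19, 10 without replicate 21, and 11 and 13 without liver control replicates 18 and 1. It was 13 of 38 tested in thinned libraries and 32 of 43 with sums of 1000000. A replicate block also lowered the count, as given in the closing section.

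miR-655 ranged from 161 to 352 in ad libitum livers, 172 to 297 in restricted livers and 477 to 752 in control livers, so the control livers lay above all others. In the mammary fat pad it ranged from 382 to 589, 331 to 693 and 328 to 494 in the same order. The difference was −1.51 (adjusted p = 0.00106). miR-380-3p ranged from 229 to 543 in ad libitum, 172 to 336 in restricted and 614 to 970 in control livers, and from 926 to 1748, 814 to 1780 and 871 to 1210 in the mammary fat pad, a difference of −1.61 (adjusted p = 0.00153). For both miRNAs the mammary fat pad groups overlapped while control livers stood above the other livers.

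**Figure D4:**
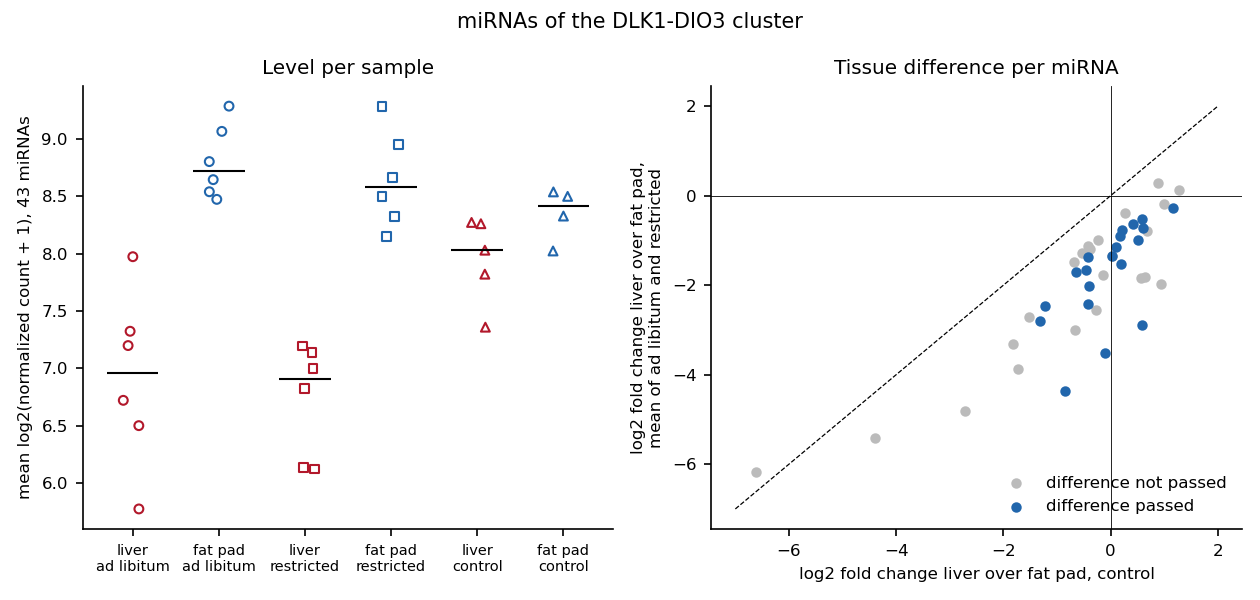
Left, mean log2(normalized count + 1) of the 43 tested DLK1-DIO3 miRNAs in each sample, with liver (red) and mammary fat pad (blue) side by side for each feeding label and a black line at each group's median. Right, log2 fold change of liver over mammary fat pad per miRNA in milk replacer samples (vertical) against control samples (horizontal), with the 20 miRNAs past the threshold in blue, all but 1 of the 43 lying below the dashed line of equal change.

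Outside the cluster the largest negative differences were those of miR-200a (−4.09, adjusted p = 0.0122) and miR-200b (−4.03, adjusted p = 0.0088). Both were listed at 0 in all 4 control mammary fat pad libraries, so the size of these differences depends on the pseudocount, and neither passed in thinned libraries (−2.37 and −2.32, both at an adjusted p of 0.285), while miR-200a ranged from 3.49 to 84.8 in ad libitum and from 0 to 38.1 in restricted ones. Its liver levels overlapped, from 3991 to 14168, 4148 to 19217 and 5332 to 16342 in ad libitum, restricted and control samples. miR-210 had the largest positive difference, 0.91 (adjusted p = 0.0204). It ranged from 676 to 1361, 881 to 1268 and 659 to 1397 in ad libitum, restricted and control livers, and from 218 to 374, 416 to 599 and 605 to 862 in the mammary fat pad.

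Between ad libitum and restricted samples the tissue difference was lower past the threshold for 2 names (0.615%) and higher for 0 (37 of 325 at an unadjusted p under 0.05). Both names are copies of 1 let-7a passenger arm that share reads. let-7a-1-3p ranged from 818 to 2079 in ad libitum and from 1651 to 2316 in restricted livers, and from 782 to 1353 in ad libitum and from 436 to 747 in restricted mammary fat pads. The difference was −1.12 (adjusted p = 0.0313). The count of 2 became 0 without any 1 of 9 libraries (liver ad libitum replicates 6 and 9, liver restricted replicates 4 and 5, mammary fat pad ad libitum replicates 11 and 15, mammary fat pad restricted replicates 5, 8 and 16), and 4 without liver restricted replicate 16.

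The arms of 28 hairpins could be compared within a library, which removes the size factor where both arms stand well above the 1 added to each value. In 14 of the 28 an arm was listed at 0 in at least 1 library, and in such a library the ratio still holds the size factor. The ratio of the 5p to the 3p arm was higher in liver for 7 (25.0%) and lower for 14 (50%). With both arms at a mean of at least 50, it was higher for 4 and lower for 11 of 19. For miR-2483 both arms were listed at 0 in most liver libraries, so its value there is no measured ratio. For miR-27a the log2 ratio ranged from −15.44 through −11.03 to −9.46 in liver and from −8.49 through −6.65 to −5.54 in the mammary fat pad. miR-27a-5p, its passenger arm, was listed at 0 in 7 liver libraries, so the size of that difference depends on the pseudocount, while miR-27a-3p had a log2 fold change of −0.07 ± 0.10 (SE) between tissues, or −0.21 and past the threshold with sums of 1000000. For let-7a-3 the ratio ranged from 3.84 through 4.57 to 6.15 in liver and from 6.18 through 6.97 to 7.84 in the mammary fat pad, with no overlap and no value at 0. Its difference was −2.29 ± 0.18 (adjusted p = 2.09e-12).

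Ratios higher in liver were those of miR-30b, miR-424 and miR-455 among others. For miR-30b the ratio ranged from 7.31 through 9.28 to 12.87 in liver and from 5.76 through 7.52 to 8.31 in the mammary fat pad, with the 3p arm at 0 in 8 liver libraries. For miR-503 the 3p arm was listed at 0 in all 17 liver libraries and in 0 of the mammary fat pad libraries. For miR-369, of the DLK1-DIO3 cluster, the ratio was lower in liver by −1.76 ± 0.20 (SE) with no value at 0.

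**Figure D5:**
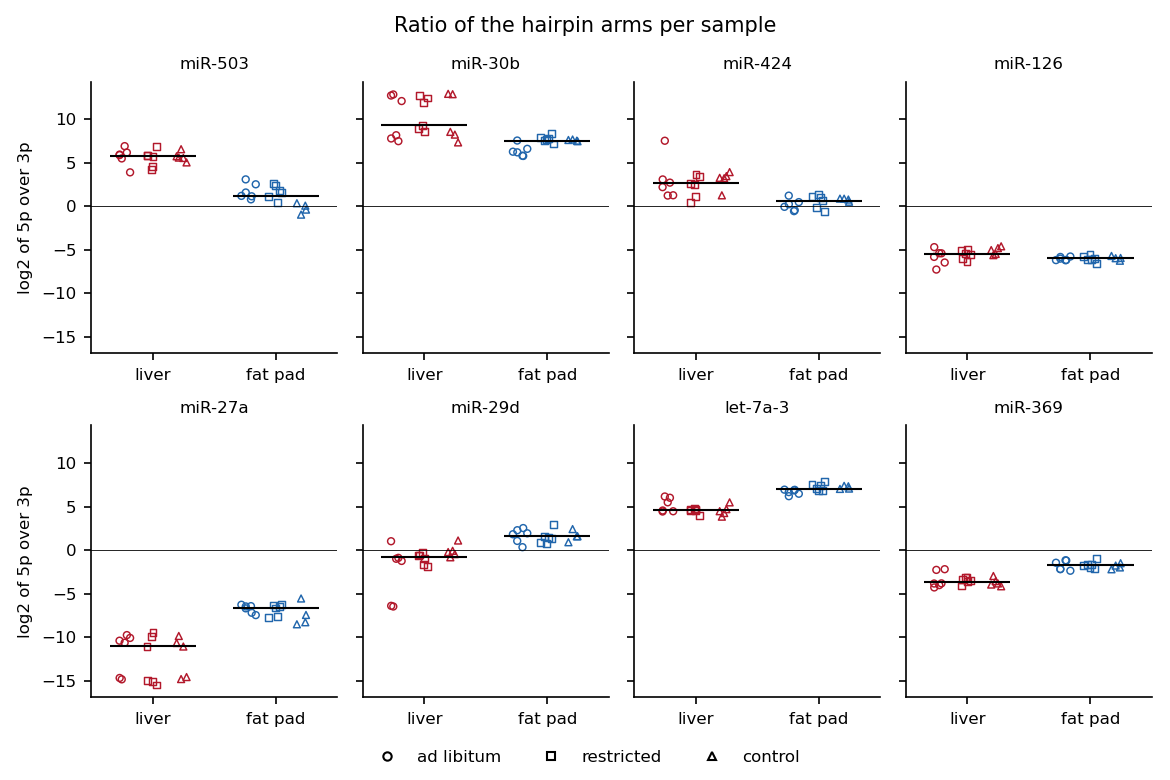
Log2 ratio of the 5p to the 3p arm, with 1 added to each value, for 8 hairpins in each liver sample (red, left) and mammary fat pad sample (blue, right), with a black line at the tissue median and marker shapes as feeding labels. The outer cluster of liver points for miR-30b and for miR-27a holds libraries with 1 arm listed at 0, as are all liver points of miR-503, and let-7a-3 separates with both arms measured throughout.

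miRNAs that lie near each other in the genome were also set side by side. By the RefSeq annotation of ARS-UCD2.0, 313 of the 325 miRNAs had an entry and 37 clusters were formed of hairpins no more than 10000 bases apart. In 31 clusters at least 2 miRNAs were called, and in 24 of these all calls went one way, 11 higher in liver and 13 lower. With 251 of all 325 miRNAs called, neighbours that are both called are common, and whether neighbours share a direction more often than other miRNAs was not tested. miR-192 with miR-194-2, miR-451 with miR-144, and miR-106b with miR-93 and miR-25 were among those higher. let-7c with miR-99a, and miR-99b with let-7e and miR-125a, were among those lower, and 7 clusters held calls in both directions.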

How the data were processed

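The deposited table held normalized values for 524 miRNAs in 48 samples, made by the authors by scaling each library's read counts with its own size factor. It also held the authors' fold changes and p-values, which were not used. Per the submitters' processing notes, Trim Galore, DESeq2, bcl2fastq and FastQC were used, in versions not stated there. For the deposited table, neither aligner nor genome build is given in the sources used here. No count model was run. Reads per library were estimated from the value steps.

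Liver (n = 17) was compared with mammary fat pad (n = 16) by limma 3.58.1 in R 4.3.3, with a variance trend, on log2(value + 1), with 1 mean for each of 6 tissue and feeding groups and the 3 feeding groups weighted equally. miRNAs with a mean of at least 10 were kept. Calls had a Benjamini-Hochberg adjusted p under 0.05. Fold changes of low miRNAs depend on the pseudocount and on values listed at 0, and can be too small or too large. Single values per sample were compared by permutation (100000 resamples). The procedure was tested on simulated data. In each of 19 groups of numbered copies that share reads, the most abundant copy alone was named. Named miRNAs were the members of 28 lists, the 15 largest changes in each direction where a tissue averaged 50 or more, the 5 most abundant per tissue, and the 5 largest differences by feeding and by arm ratio in each direction. The members and lists were chosen with earlier results of these data known. Alternatives covered scaling, pseudocount, filter, thinning, pairing and leaving out each library.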

Additional observations from a re-analysis of the deposited data

Results flagged for a closer look

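For 41 of the miRNAs described, 231 groups of 4 to 6 samples were examined. In 27 of these groups 1 sample stood apart from the rest, 26 times as the highest. A chance rate of about 1 such group in 20 assumes normally distributed values. The samples were compared on normalized counts and not on a log scale, so that rate may not hold here. Whether the 27 groups exceed chance was not tested.

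Liver restricted replicate 8, the library with the highest sum of values, stood apart for 6 miRNAs. It held 4988 of miR-215, where the other restricted livers lay between 1661 and 2621, and 1711150 of miR-148a, where they lay between 691702 and 1051430. For miR-101-2 it held 360779, against 22601 to 75903 in the others, and for miR-200a 19217, against 4148 to 6779. For miR-10b it held 2234, against 414 to 937, and for miR-143 765784, against 335869 to 468491.

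In liver ad libitum replicate 15, miR-30a-5p stood at 266011 (the others 98600 to 130431), miR-200a at 14168 (3991 to 6798) and miR-378-2 at 11924 (4351 to 6666). Liver ad libitum replicate 6 held 477 of miR-223 (178 to 289) and 54930 of miR-100 (31413 to 40183), and replicate 9 held 710 of miR-182 (192 to 319). Among restricted livers, replicate 13 held 4629 of miR-10a (2506 to 3196) and replicate 16 held 505 of miR-223 (93.5 to 227). Among control livers, replicate 2 held 3634 of miR-215 (1514 to 1806) and replicate 19 held 5305 of let-7c (2516 to 3242). Control replicate 18 held 2474 of miR-451 (4212 to 4712), the only low value.

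In the mammary fat pad, ad libitum replicate 3 held 3798 of miR-122 (4.13 to 156) and restricted replicate 5 held 667 (0 to 173). miR-885 stood at 5.21 in ad libitum replicate 6 and at 5.81 in restricted replicate 13, with the others of each group at 0. Restricted replicate 5 held 767 of miR-433 (136 to 360) and replicate 10 held 9914 of miR-708 (4798 to 6236). Control replicate 2 held 460661 of miR-148a (299781 to 315026) and 177670 of miR-10b (119900 to 127198). Control replicate 21 held 12162 of miR-101-2 (8586 to 8907), and control replicate 19 held 84.3 of miR-182, with the others at 0.

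The tissue difference itself differed between milk replacer and control samples for 21 of the named miRNAs, on the log2 scale. Negative differences from the DLK1-DIO3 cluster were miR-329a at −3.52, miR-376c at −3.48, miR-134 at −3.41, miR-299 at −2.01, miR-380-3p at −1.61, miR-655 at −1.51, miR-382 at −1.48, miR-493 at −1.38, miR-370 at −1.25, miR-379 at −1.06 and miR-127 at −0.93. The first 3 had SEs of 0.88, 1.12 and 0.97, against 0.27 for miR-655. With each library left out in turn, miR-370 lost its call in 20 fits, miR-376c in 19 and miR-127 in 13. miR-379 lost it in 5, miR-382 in 4, miR-134 in 2 and miR-493 in 1, and the rest kept it. Outside the cluster the negative differences were miR-200a at −4.09, miR-200b at −4.03, miR-383 at −2.93, miR-503-5p at −2.63 and miR-483, from an intron of IGF2, at −1.83. Of these, miR-383 was not detected in any liver library, so its difference came from the mammary fat pad values alone. Positive differences were miR-210 at 0.91, miR-92a-1 at 0.75, miR-103-2 at 0.69, miR-25 at 0.64 and miR-26a at 0.57. Between ad libitum and restricted samples let-7a-1-3p differed, at −1.12.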

How the results depend on the processing

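The counts of miRNAs higher and lower in liver stayed within 1.5 times the reported ones under every alternative run, and leaving out each library gave 120 to 123 higher and 130 to 136 lower. For the tissue difference in milk replacer minus control samples, the positive and negative counts were 0 and 49 with sums of 1000000, 1 and 11 with a replicate block, and 3 and 16 without the block in the same 32 samples. Leaving out each library gave 3 to 14 and 12 to 30. For ad libitum minus restricted, thinned libraries gave 1 higher and 4 lower, sums of 1000000 gave 1 lower, 1 copy per group gave 0 lower, and leaving out each library gave 0 to 1 and 0 to 4. Arm ratios higher in liver numbered 4 with both arms at a mean of 50 and 4 in thinned libraries, and 7 to 8 higher and 13 to 15 lower with each library left out. The difference in detected miRNAs reversed to 4.5 at a minimum value of 10, 7.78 at 50 and 3.61 in thinned libraries, and was −23.7 to −17.2 with each library left out. The difference in top share was −0.23 for the most abundant miRNA, 0.042 for the 50 most abundant, and 5.70 to 6.35 with each library left out. Between tissues, the log2 fold change of miR-376c reversed to 0.45 (limma, adjusted p = 0.583) and the arm ratio difference of miR-10172 to 1.09 in thinned libraries. Of the named miRNAs, 19 of 154 tissue results, 19 of 22 feeding differences and 6 of 21 arm ratios changed their call in at least 1 alternative. The cause was not tested.

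The replicate numbers are not stated to mark an animal. Samples with the same number in both tissues had deviations correlating between −0.17 and 0.26 (median 0.14). Each number found in both tissues carried the same feeding label in both, and 9 of 16 ranked their own number first within the feeding group. Both are hints of pairing, which the labels do not state. Since 11 of 16 pairs and not every pair exceeded 0.1, the main fit did not pair samples and treated them as independent. That cut-off does not show that the samples are independent. With the replicate block 120 miRNAs were higher and 132 lower in liver, and the negative feeding differences of the DLK1-DIO3 cluster numbered 9, against 13 without the block in the same samples.

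Depth limits the low miRNAs, since up to 5 reads are listed as 0. The alternative without the block in 32 samples, and one without the smallest liver library and the mammary fat pad library highest in miR-122, were chosen after seeing the data. Leaving out that pair gave 122 higher and 134 lower.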
